A study of Rattus norvegicus with 2 samples.

Results

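Mesothelial cells are the flat cells that line the body cavity and cover the outer surface of the gut. In fetal rat colon they were selected on measured transcripts, as cell barcodes with transcripts of at least 2 of the genes Upk3b, Wt1, Lrrn4, Upk1b and Muc16, fewer than 4 of 7 epithelial genes (Epcam, Cldn7, Cldn4, Cldn3, Elf3, Vil1 and Lgals4) and none of the neuronal gene Elavl4. Muc16 was not analysed here, so the choice rested on 4 genes. The rule took 81 of the 14115 barcodes kept for analysis, which had 500 genes or more and no more than 20% of mitochondrial transcripts. These are called mesothelial-rule cells.

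The study profiled single cells of wild-type (WT) rat colon at E19.5, close to birth, with 1 library from the control group and 1 from the maternal obesity group. The labels give no number or sex of fetuses and no stretch of colon. Each transcript was counted once by its unique molecular identifier (UMI). Each group being a single library, differences between them carry no test, and the intervals given below cover counting error only, not the spread between animals.

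The mesothelium arises from the epithelium of the coelom, the embryonic body cavity. It keeps epithelial features, such as keratins, junctions and a surface coated with mucin-like proteins, while it also makes vimentin, collagens and retinoic acid, which are features of mesenchyme. Wt1 is a transcription factor of the coelomic lining, Upk3b and Upk1b encode uroplakins, which are membrane proteins of covering epithelia, and Lrrn4 encodes a leucine-rich repeat membrane protein. In the fetus, cells of this layer can leave it and join the underlying mesenchyme.

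Sequences of 3 genes are shown because the results turn on them: Upk3b as a gene of the rule, Krt71 as the leading gene outside the markers, and Cxcl10 as a gene whose level lay far apart between the libraries. Each is the 250 bases before the gene's start in RefSeq (build GRCr8), 5′ to 3′ on the gene's strand. Upk3b lies on the minus strand (chr12:26274241-26274490), Krt71 on the minus strand (chr7:134761034-134761283) and Cxcl10 on the plus strand (chr14:15988816-15989065). Capitals mark motif matches.
Upk3b: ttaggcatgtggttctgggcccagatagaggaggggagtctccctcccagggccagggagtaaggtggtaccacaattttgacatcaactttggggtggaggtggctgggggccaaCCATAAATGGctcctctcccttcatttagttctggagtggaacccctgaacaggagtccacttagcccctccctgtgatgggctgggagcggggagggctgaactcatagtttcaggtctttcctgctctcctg
Krt71: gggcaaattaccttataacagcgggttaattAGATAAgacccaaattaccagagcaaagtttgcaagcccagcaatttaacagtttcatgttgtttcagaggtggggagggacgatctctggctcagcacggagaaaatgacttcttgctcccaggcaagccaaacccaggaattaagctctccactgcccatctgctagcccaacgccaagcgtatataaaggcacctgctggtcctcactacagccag
Cxcl10: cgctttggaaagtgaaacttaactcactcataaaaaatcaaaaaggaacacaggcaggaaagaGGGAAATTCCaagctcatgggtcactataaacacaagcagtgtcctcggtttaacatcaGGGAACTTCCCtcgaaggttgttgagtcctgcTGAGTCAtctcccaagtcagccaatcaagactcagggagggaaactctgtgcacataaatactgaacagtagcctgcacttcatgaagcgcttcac

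The Upk3b capitals are a CArG box, the motif bound by serum response factor, which 1.5% of all 33469 promoter windows of this length held on either strand. The Krt71 capitals are the GATA motif AGATAA, held by 10.3% of windows. In Cxcl10 the capitals are 3 matches of an NF-kB pattern, 2 of them overlapping, and 1 of the AP-1 pattern TGANTCA. Those patterns were in 1.08% and 6.34% of windows. Of the 10 genes named below as lower in maternal obesity, 5 had a window, and 1 held the NF-kB pattern and 2 the AP-1 pattern. Among the mesothelial markers 1 of 11 windows held the CArG box, and among the 15 leading genes named below 2 of 12 held GATA. CRE and TEAD patterns were searched as well, so the motifs shown are a selection. A match describes letters only and does not show a bound site.

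The control library held 45 mesothelial-rule cells among 6879 kept barcodes, a share of 0.654% (exact Clopper-Pearson 95% interval 0.478 to 0.874). The maternal obesity library held 36 among 7236, a share of 0.498% (0.349 to 0.688). The intervals overlap. With fewer than 2 epithelial genes allowed, the order turned, to 0.247% in control and 0.304% in maternal obesity. Of the barcodes with at least 2 rule genes, 64 in control and 42 in maternal obesity, 15 and 1 were left out for epithelial genes, and 4 and 5 for Elavl4. The 2 libraries shared 130 barcode sequences, and 1 mesothelial-rule cell in each library carried a shared one.

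The cells were sequenced to a similar depth in both libraries. Their median was 8642 UMIs in control (lowest 1460, highest 42024) and 10680.5 in maternal obesity (1020 to 50225), against 9912 and 10103.5 over all kept barcodes. Summed over the cells this gave 527479 and 452187 UMIs, and levels below are counts scaled to a sum of 1000000 per library (CPM). Mitochondrial shares had medians of 1.92% and 2.82%. Haemoglobin made up 0.0104% of the cells' UMIs in control and 6.22% in maternal obesity, where 2 barcodes held 13095 and 14523 haemoglobin UMIs.

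A number of barcodes met the rule but were led by transcripts of other cells, and they are named here before the results. In control, 1 had 1067 UMIs over the smooth muscle markers against 4 over the mesothelial markers, and 1 had 45 macrophage UMIs against 14 mesothelial ones. In maternal obesity, 2 barcodes had only 2 mesothelial marker UMIs each beside 425 and 559 fibroblast marker UMIs, and 2 were the haemoglobin-rich barcodes. Without these 6 barcodes, chosen after their values were seen, 43 and 32 cells remained and the haemoglobin shares were 0.00955% and 0.127%. Gene ratios below that move by over 1.5 times without them are given both ways.

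The cells were checked against 17 mesothelial markers, of which 16 were found in both libraries. Calb2, which encodes calretinin, had 0 UMIs in 45 and in 36 cells, which allows a share of up to 6.67% and 8.33% of cells with a UMI. Summed over all markers, each control cell held 4 to 326 UMIs with a median of 57, and each maternal obesity cell 2 to 231 with a median of 57.5. That sum came to 6745 CPM in control and 5489 in maternal obesity, and to 7857 and 5416 CPM in barcodes taken as an epithelial reference, since epithelium also makes the keratins of the list. Without the rule's own genes and the 4 keratins, 9 markers remained, and at least 3 of them had UMIs in 38 of 45 cells of the control library and 32 of 36 of the other. These 9 summed to 1991 and 2284 CPM, against 173 and 240 CPM in the fibroblast, 124 and 182 CPM in the smooth muscle and 47.4 and 18.8 CPM in the epithelial reference. In 22 control and 7 maternal obesity cells the mesothelial sum was not passed by the sum of another class with at least 3 of its markers found. In most other cells the sum that passed it was that of the fibroblast list, which holds Col1a1 and Col3a1.

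**Figure D1:**
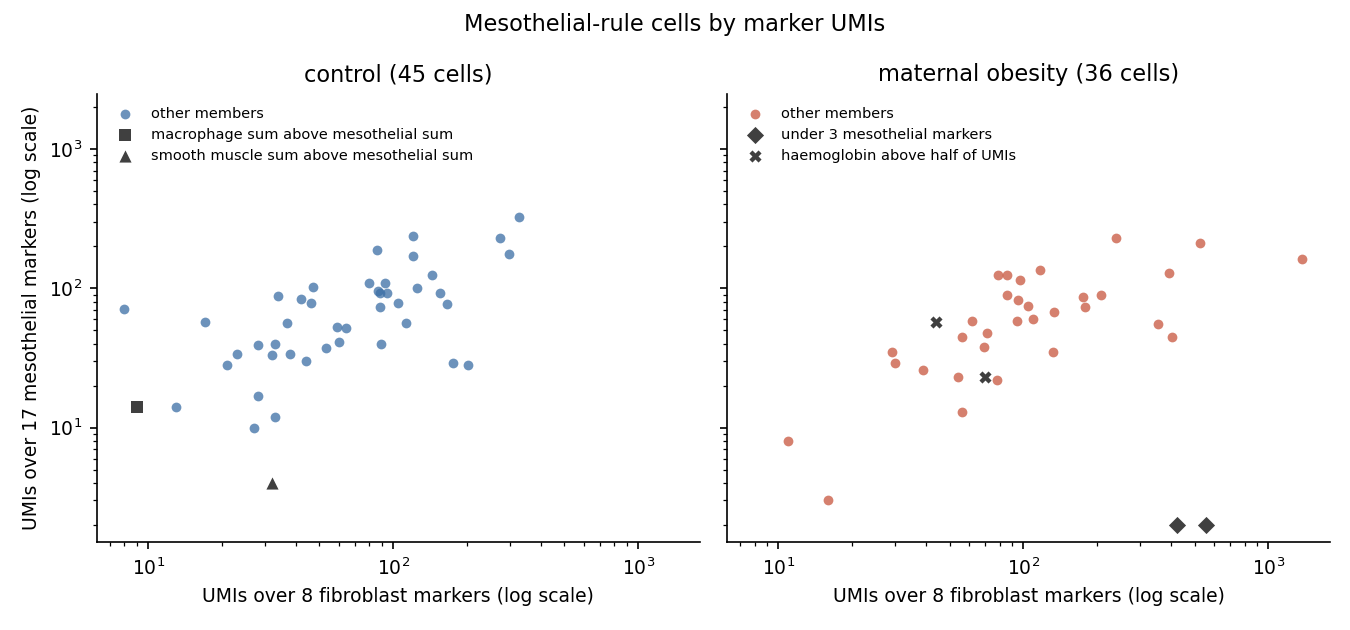
Each point is 1 mesothelial-rule cell, placed by its UMIs over 8 fibroblast markers (horizontal, log scale) and over 17 mesothelial markers (vertical, log scale), with control on the left and maternal obesity on the right. Black symbols are the 2 and 4 barcodes led by other cells' transcripts, and the other cells hold UMIs of both marker lists.

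The 4 rule genes are described without a test, since they chose the cells. Upk3b had 86 UMIs in control, or 163 CPM, and 100 in maternal obesity, or 221 CPM, in 32 and 24 cells. Wt1 had 121 and 133 CPM, Lrrn4 121 and 157 CPM, and Upk1b 438 and 374 CPM. For each of the 4 genes the ratio between the libraries lay within 1.5-fold. UMIs of all 4 genes were found in 14 control and 14 maternal obesity cells, of 3 in 12 and 9, and of exactly 2 in 19 and 13.

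The cells just inside and just outside the rule differed in genes the rule did not use. In cells with exactly 2 rule genes, Aldh1a2, which encodes a retinoic acid-forming enzyme, had 729.8 CPM in control and 379.6 in maternal obesity. In cells with exactly 1 rule gene, 40 in control and 63 in maternal obesity, it had 51.3 and 15.2 CPM. Msln, which encodes the surface protein mesothelin, had 131 and 41.3 CPM inside against 21.5 and 3.25 CPM outside. These Msln levels rest on few cells: 8 of 19 and 4 of 13 inside, and 1 of 40 and 2 of 63 outside.

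Surface markers outside the rule were found in most cells. Podxl, a sialomucin of the cell surface, had 277 CPM in control and 374 in maternal obesity, in 37 and 28 cells, against at most 4.67 CPM in fibroblast, smooth muscle and epithelial reference barcodes. Those references hold no rule gene and were taken by Dcn and Lum, by Myh11, Actg2 and Cnn1, or by at least 6 of the 7 epithelial genes. Msln had 231 and 283 CPM in 27 and 20 cells, and its level per cell ran from 0 to 2091 CPM in control and from 0 to 4421 CPM in maternal obesity. Epithelial reference barcodes also held Msln, at 41.4 and 9.94 CPM.

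Transcription and signalling markers followed. Bnc1, a zinc finger protein of covering epithelia, had 127 CPM in control and 212 in maternal obesity against at most 1.01 CPM in the 3 references. Rspo1, a secreted enhancer of Wnt signalling, had 83.4 and 215 CPM and was found in 17 of 45 and 28 of 36 cells. The median cell held no Rspo1 UMI in control and 163 CPM in maternal obesity. Aldh1a2 had 817 and 661 CPM, and the fibroblast reference held 54.4 and 74.6 CPM. Cdh3, a cadherin of cell contacts, had 368 and 323 CPM against 58.5 and 79.4 CPM in that reference. Nkain4, which encodes a protein that interacts with the sodium pump, had 81.5 and 186 CPM, a ratio of 2.28 (1.56 to 3.37), against 49.6 and 74.1 CPM there. Gpm6a, a membrane glycoprotein, had only 3 and 14 UMIs.

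The keratins of simple epithelia, filament proteins that pair in the cytoplasm, were present but not particular to these cells. Krt8 had 1507 CPM in control and 703 in maternal obesity, Krt18 had 770 and 438 CPM, Krt19 had 967 and 734 CPM, and Krt7 had 667 and 445 CPM. Epithelial reference barcodes held 3311 and 2436 CPM of Krt8. Fibroblast reference barcodes, which should lack it, held 95.9 and 51.9 CPM, below the level in mesothelial-rule cells of the same library.

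Over all genes, 92 of 3157 with at least 20 UMIs in each library (2.91%) were at least 8-fold higher in mesothelial-rule cells than in all other kept barcodes in both libraries. The comparison of cells chosen by their transcripts with the rest is a description, not a test. Outside the marker list the leading 15 were Krt71, Krt14, Fmod, Tmem151a, Rbfox3, Plxdc1, Egfl6, Ppp2r2b, Hapln1, Tgfb3, Myrf, Nrg2, LRRTM1, Cldn1 and Sult1a1. Their folds ran from 40.0 to 568.

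Structural genes among them came first. Krt71, a keratin best known from the hair follicle, was 335-fold higher than in other barcodes in control and 357-fold in maternal obesity, with UMIs in 21 and 10 cells. Krt14, a keratin of basal epithelial cells, was 568-fold and 270-fold higher, with UMIs in 15 and 9 cells. Both were thus found in a minority of the cells. Cldn1, a tight junction protein, was 40.1-fold and 55.6-fold higher.

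Matrix and signalling genes formed another set. Fmod, a collagen-binding proteoglycan, had 248 CPM in control and 281 in maternal obesity and was found in 39 and 30 cells, against 0 and 0.911 CPM in the fibroblast reference. Egfl6 and Hapln1, both secreted matrix proteins, had 47.4 and 37.9 CPM in control, and 111 and 46.4 in maternal obesity. Tgfb3, a TGF-beta ligand, had 104 and 139 CPM, and Nrg2, a ligand of ErbB receptors, had 56.9 and 57.5 CPM.

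Genes better known from the nervous system were also among the 15. Rbfox3, the splicing factor that carries the neuronal antigen NeuN, had 231 CPM in control and 226 in maternal obesity, in 31 and 26 cells. Myrf, a transcription factor known from myelin-forming cells, had 250 and 372 CPM, in 34 and 32 cells. Tmem151a, a transmembrane protein, had 303 and 265 CPM. The neuron marker Elavl4 was at 0 in both libraries by the rule. The whole neuron list was not: it summed to 254 and 248 CPM, against 50.4 CPM in the fibroblast reference of each library. Only 11 of 45 control and 5 of 36 maternal obesity cells held no UMI of it. The glia markers Sox10 and Fabp7 were at 0 in both libraries, and the glia list summed to 5.69 and 6.63 CPM.

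**Figure D2:**
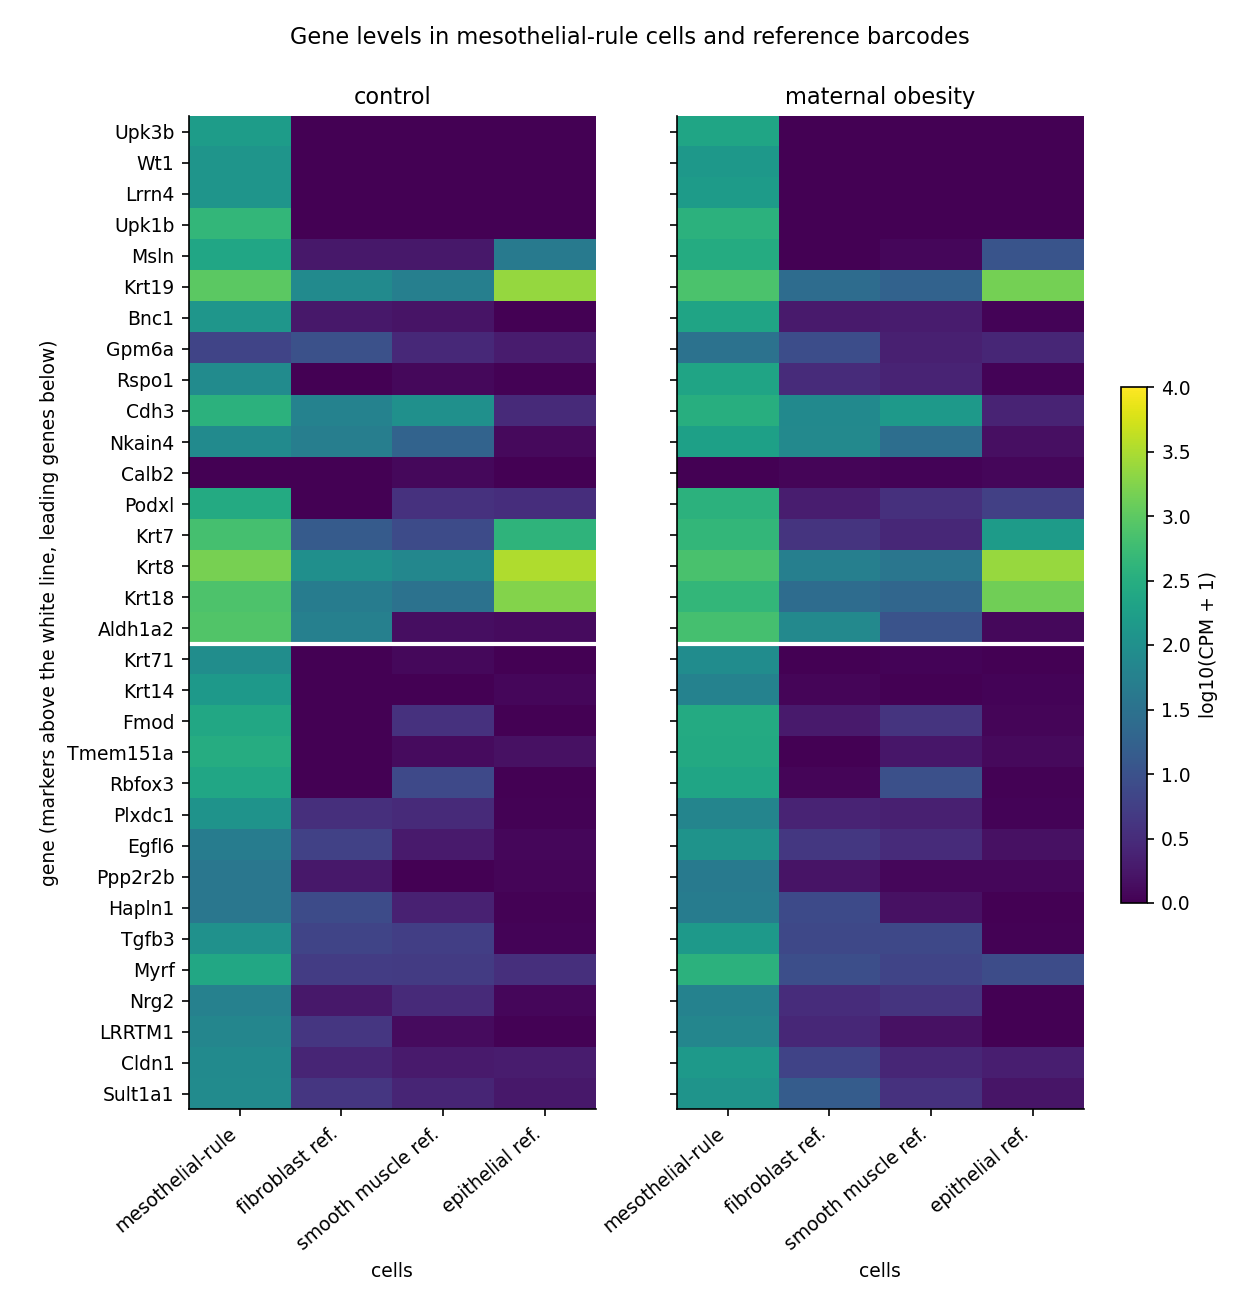
Colour gives log10(CPM + 1) of 17 mesothelial markers (above the white line) and the 15 leading genes (below it) in mesothelial-rule cells and 3 sets of reference barcodes, for control (left) and maternal obesity (right). The leading genes are bright in the first column and dark in the other columns, while the keratins Krt7, Krt8, Krt18 and Krt19 are also bright in the epithelial reference.

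Keratins and collagens were found in the same cells. Among the 43 control cells not led by other transcripts, 40 held at least 5 UMIs of the 4 simple keratins together and at least 5 of Col1a1 and Col3a1 together, and among the 32 maternal obesity cells 28 did. The keratin sum had a median of 35 UMIs per cell in control and 26.5 in maternal obesity. The collagen sum had a median of 57 and 85 UMIs, with a highest cell of 297 and 1317.

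Markers of neighbouring cells were counted over whole lists. The 8 fibroblast markers summed to 7308 CPM in control and 14726 in maternal obesity, against 15116 and 18558 CPM in the fibroblast reference. No fibroblast marker was at 0. The epithelial list summed to 537 and 265 CPM, against 12009 and 10089 CPM in the epithelial reference, and Elf3, Vil1 and Cdx2 were at 0 in control. Epcam, an adhesion protein of epithelia, made up most of it, with 432 and 190 CPM. The list of 9 genes holds all 7 epithelial genes that the rule limited, Epcam, Elf3 and Vil1 among them. The epithelial reference was chosen by those same genes. The gap between the cells and that reference was therefore set at least in part by the choice of barcodes, and is no separate check. At 3000 UMIs per cell, Epcam was found in 32 of 43 cells of the control library and 11 of 32 of the other (39 of 45 and 22 of 36 at full depth). It was singled out after its values were seen. The fibroblast reference, which should lack it, had it in 32 of 152 and 139 of 713 thinned cells.

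The endothelial markers summed to 7.58 CPM in control and 46.4 in maternal obesity with Cdh5 and Emcn at 0 in both, and the glial markers to 5.69 and 6.63 CPM. Macrophage markers summed to 91.0 and 88.5 CPM, and 1 cell held 93.8% of them in control and 90% in maternal obesity. Without the 6 barcodes they summed to 5.85 and 105 CPM. Smooth muscle markers summed to 2758 CPM in control and 356 in maternal obesity, and 73.3% of the control UMIs lay in 1 barcode. Without the 6 barcodes they summed to 752 and 367 CPM. Neuron markers summed to 254 and 248 CPM, against 50.4 CPM in the fibroblast reference of each library, with Elavl4 at 0 by the rule. Pericyte markers summed to 60.7 and 44.2 CPM, those of interstitial cells of Cajal to 136 and 188 CPM with Kit at 0 in maternal obesity, and those of lymphoid cells to 1.90 and 2.21 CPM. Erythroid markers summed to 79.6 and 43836 CPM, and to 72.1 and 905 CPM without the 6 barcodes.

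Cycling cells were few. At least 2 UMIs of Mki67 and at least 2 of Top2a, both made in dividing cells, were found in 6 control and 6 maternal obesity cells. In each library 3 cells held most Mki67 UMIs (69.0% and 67.3%).

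Between the libraries, 3069 genes had at least 50 UMIs summed over the mesothelial-rule cells of both. Of these, 89 (2.9%) were at least 2-fold higher in maternal obesity and 135 (4.4%) at least 2-fold lower, with a median log2 ratio over all of -0.12. The split depended on scaling and on the cells kept: it was 118 higher and 97 lower after division by the median ratio, 109 and 100 without haemoglobin and mitochondrial UMIs in the total, and 101 and 91 without the 6 barcodes led by other cells. The median log2 ratio of all genes was then 0, -0.01 and -0.02. In all other kept barcodes, 33 of the 89 genes were also at least 2-fold higher and 12 of the 135 also at least 2-fold lower. How many of all 3069 genes passed 2-fold there was not counted, so these overlaps have no background share beside them. The median log2 ratio in those barcodes was 0.59 for the 89 genes, -0.34 for the 135 and -0.05 for all 3069. Those barcodes differ in cell mix: 156 in control and 726 in maternal obesity met the fibroblast reference, and 2543 and 1248 the epithelial one. Ratios over all other barcodes carry that mix as well as levels within cells.

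The 10 genes furthest below control were Arc, Trib1, Ccl21, Ccl2, Hbegf, Myc, Idi1, Gadd45a, Ets1 and Cxcl10, which have different known roles. Arc, an immediate early gene first known from neurons, had 191 UMIs in 21 of 45 control cells (362 CPM) and 8 UMIs in 2 of 36 maternal obesity cells (17.7 CPM). It was 20.5-fold higher in control (exact conditional 95% interval 10.2 to 48.1). Trib1, a pseudokinase, had 120 and 5 UMIs, and was 20.6-fold higher in control (8.58 to 64.5). In all other barcodes the level in maternal obesity was 0.921 of control for Arc and 0.560 for Trib1. Neither gap was of that size in this pool, whose mix of cell types differed between the libraries.

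A growth factor gene and transcription factor genes followed. Hbegf, an EGF receptor ligand, had 115 UMIs in 22 control cells and 10 UMIs in 10 maternal obesity cells, 9.86-fold higher in control (5.17 to 21.1). Its level in maternal obesity was 0.405 of control in all other barcodes and 1.09 in the fibroblast reference. Myc, a growth-promoting transcription factor, had 98 and 9 UMIs, 9.33-fold higher in control (4.72 to 21.0). Ets1, also a transcription factor, had 52 and 4 UMIs, 11.1-fold higher in control (4.10 to 42.4).

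Of the 10 genes, 3 encode chemokines, which attract leukocytes. Ccl2 had 65 UMIs in 10 control cells and 4 UMIs in 3 maternal obesity cells, 13.9-fold higher in control (5.19 to 52.7), while in all other barcodes its level in maternal obesity was 2.31 of control. Cxcl10 had 65 UMIs in 14 control cells and 7 in 4 maternal obesity cells, 7.96-fold higher in control (3.65 to 20.6), and Ccl21 had 93 UMIs in 12 cells and 5 in 4 cells, 15.9-fold higher (6.59 to 50.3). One control cell held 30.6% of all Ccl21 UMIs. Ccl2 came to 123 CPM in control and 8.85 in maternal obesity, and Cxcl10 to 123 and 15.5 CPM. Levels were higher in the fibroblast reference, at 1097 and 1622 CPM for Ccl2 and 1251 and 857 CPM for Cxcl10. The ratios there were 1.48 and 0.685 of control. Cxcl13, a chemokine of the cytokine list below with similar counts (63 and 68 UMIs), was at 1.26 of control (0.880 to 1.80).

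Stress and sterol genes completed the 10. Gadd45a, a stress-induced growth arrest gene, had 133 UMIs in 31 control cells and 16 in 7 maternal obesity cells, 7.13-fold higher in control (4.23 to 12.8). Idi1, an enzyme of sterol synthesis, had 481 UMIs in 35 cells and 74 in 18 cells, 5.57-fold higher in control (4.36 to 7.22). In all other barcodes and in the fibroblast reference Idi1 was at 0.893 and 0.888 of control. These 10 ratios stayed below 0.44 in every alternative that gave them a value. In the 22 and 7 cells in which no other class's markers led, Arc was at 0.188, Trib1 at 0.145 and Gadd45a at 0.432 of control.

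**Figure D3:**
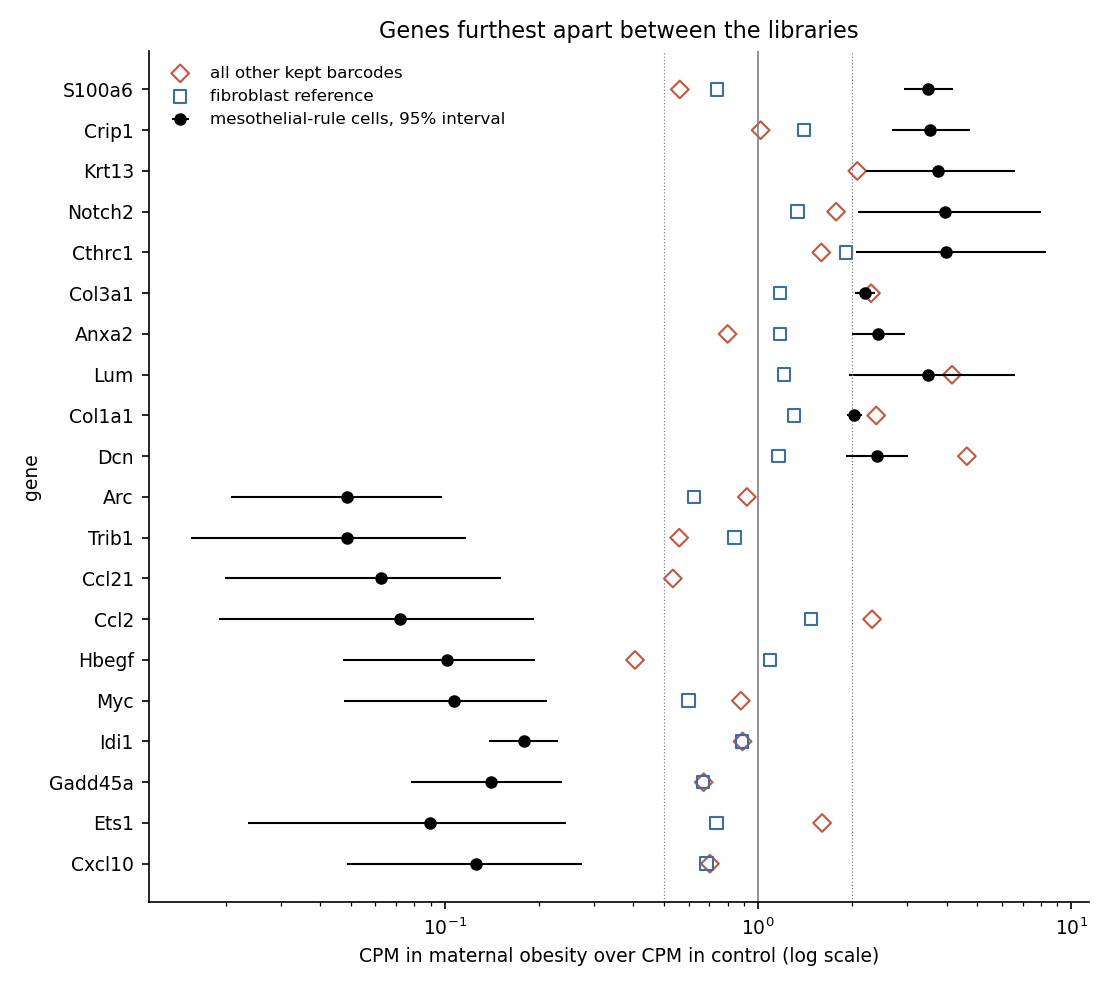
Points give CPM in maternal obesity over CPM in control (log scale) for the 10 genes higher and 10 genes lower in mesothelial-rule cells, with 95% counting intervals, beside all other kept barcodes (diamonds) and the fibroblast reference (squares). The intervals of the 10 lower genes end at or below 0.274, while 9 of the 10 diamonds beside them lie above 0.5.

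Several of the lower genes were found in the same cells of the control library, and whether more often than their levels give was not tested. With every cell thinned to 3000 UMIs, at least 3 of the 10 genes were found in 22 of 43 cells in control (51.2%, 35.5 to 66.7) and in 1 of 32 maternal obesity cells (3.13%, 0.0791 to 16.2). In the fibroblast reference the shares were 52.6% and 42.9%. At full depth the median cell held 4 of the genes in control and 1 in maternal obesity, and 3 and 9 cells held none. The genes were chosen for this gap, so the counts describe how it lay over cells.

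The gap, for which the 10 genes were chosen in these same cells, was present at each number of rule genes. That split is a description and no separate check. Summed CPM over the 10 genes was 2408 in control and 223 in maternal obesity in cells with 2 rule genes, 3292 and 600 with 3, and 2492 and 253 with 4. The level per cell ran from 0 to 9605 CPM in control, with a median of 1520, and from 0 to 1912 CPM in maternal obesity, with a median of 161. The ranges overlap at the low end.

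**Figure D4:**
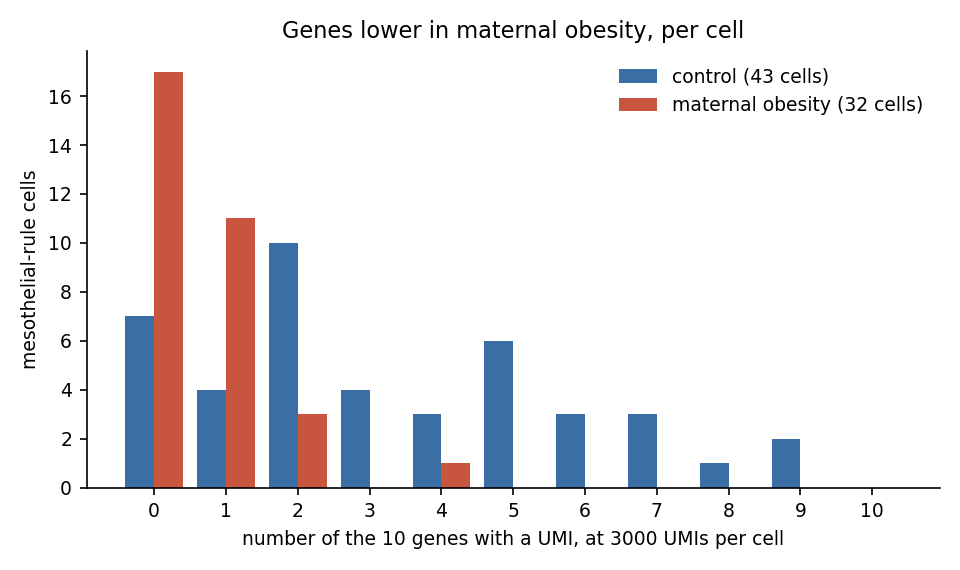
Bars count mesothelial-rule cells (vertical) by how many of the 10 genes lower in maternal obesity had a UMI once each cell was thinned to 3000 UMIs (horizontal), for 43 control and 32 maternal obesity cells. In maternal obesity 17 cells held none of the genes and 1 held more than 2, while 22 control cells held at least 3.

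A few further genes were singled out after their values were seen. Ccn1 and Ccn2, secreted matricellular proteins, were 3.68-fold (3.09 to 4.40) and 4.95-fold (3.46 to 7.27) higher in control. Ccn1 was found in 34 of 45 cells in control and 14 of 36 in maternal obesity, and in all other barcodes its level in maternal obesity was 1.47 of control. Srf, the serum response factor gene, was 5.09-fold higher in control (2.92 to 9.47). Phlda1 and Tnfrsf12a, the latter a receptor of the TNF family, were 4.00-fold and 5.54-fold higher. Ccn2, Srf and Phlda1 were at 1.01, 0.916 and 0.946 of control in all other barcodes, while Tnfrsf12a was at 0.523. Atf3, an immediate early transcription factor gene, was at 1.08 of control (0.975 to 1.19), with UMIs in 38 of 45 and 23 of 36 cells.

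Among genes higher in maternal obesity, S100a6, a calcium-binding protein, had 166 UMIs in 38 control cells and 497 UMIs in 29 maternal obesity cells. It was 3.49-fold higher (2.92 to 4.19), while in all other barcodes it was at 0.563 of control. The highest maternal obesity cell held 128 of its UMIs, and the ratio was 2.38 as a mean over cells. Crip1, a small LIM protein, was 3.55-fold higher (2.68 to 4.77), and Anxa2, a membrane-binding annexin, was 2.41-fold higher (1.99 to 2.94). In all other barcodes these 2 genes were at 1.02 and 0.80 of control. In the 22 and 7 cells in which no other class's markers led, both S100a6 and Crip1 were at 1.29.

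Krt13, Notch2 and Cthrc1 were higher with wider intervals. Krt13, a keratin of stratified epithelia, had 19 and 61 UMIs and was 3.75-fold higher in maternal obesity (2.21 to 6.64). Notch2, a receptor of the Notch pathway, was 3.95-fold higher (2.09 to 7.99), with UMIs in 12 and 22 cells. Cthrc1, a secreted protein of collagen-making cells, was 3.99-fold higher (2.06 to 8.33). Outside the mesothelial-rule cells Krt13 was also higher, at 2.08 of control. With fewer than 2 epithelial genes allowed, its ratio was 1.99.

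Fibrillar collagens were found in every cell and were higher in maternal obesity. Col1a1 ran from 645 to 18835 CPM per control cell with a median of 3102, and from 958 to 30547 CPM per maternal obesity cell with a median of 5894. The ranges overlap over most of their length. Summed over cells, Col1a1 was 2.03-fold higher (1.92 to 2.14) and Col3a1 2.19-fold higher (2.04 to 2.36). All other barcodes showed 2.39 and 2.30, the fibroblast reference 1.30 and 1.17. In the 22 and 7 cells in which no other class's markers led, the ratios were 1.31 and 1.06, but the fibroblast list that set that choice holds both genes. The epithelial reference, which should lack fibroblast markers, held 92.2 CPM of that marker list in control and 138 CPM in maternal obesity, and the part of free RNA in the collagen ratios was not tested.

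Lum and Dcn, small proteoglycans that mark fibroblasts, were 3.50-fold (1.95 to 6.6) and 2.39-fold (1.91 to 3.02) higher in maternal obesity. Lum had UMIs in 2 of 45 and 10 of 36 cells. Without the 6 barcodes led by other cells, the ratios were 1.01 and 1.63, so the Lum gap rested on those barcodes. Lum and Dcn were at 4.16 and 4.65 of control in all other barcodes, but at 1.21 and 1.16 in the fibroblast reference, which was taken by these 2 genes.

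Gene lists of the mesothelium's known functions were compared next, with the count of genes at least 2-fold apart and the median log2 ratio beside those of all 3069 genes (2.9% higher, 4.4% lower, median -0.12). The lists were chosen with earlier results of these data known. Of the 18 lists with at least 4 measured genes, 5 had a median of 0.5 or more either way, among them the red cell haemoglobins.

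Of 5 measured surface genes, 0 were higher and 1 was lower (median 0.29). Among the 5 are the rule genes Upk3b and Upk1b, which chose the cells. Msln was at 1.22 of control (0.948 to 1.58), and at 0.469 in the 22 and 7 cells in which no other class's markers led. Msln is itself in the mesothelial list that set that choice. Podxl was at 1.35 (1.08 to 1.70). Cd24, a surface glycoprotein, was 2.03-fold higher in control (1.38 to 3.05).

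Of 14 keratin and junction genes, 1 was higher and 2 were lower (median -0.23). Krt8 was 2.14-fold higher in control (1.88 to 2.45) and Krt14 2.47-fold higher (1.56 to 4.03). In the 22 and 7 cells in which no other class's markers led, Krt14 turned, to 2.26 of control, and Krt18 went from 0.569 to 1.13. The mesothelial list that set that choice holds Krt18 but not Krt14. Krt8 was also lower in all other barcodes, at 0.491 of control, and in the fibroblast reference, at 0.542, and without the 6 barcodes it was 1.90-fold higher in control. Tjp1, a scaffold of tight junctions, was 2.05-fold higher in maternal obesity (1.32 to 3.25), and Ezr, which ties the membrane to actin, was at 0.793 of control.

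The transcription factor list had 9 measured genes, 0 higher and 1 lower (median 0.13). Among the 9 is the rule gene Wt1, which helped to choose the cells. Wt1 was at 1.09 of control (0.756 to 1.58), and at 0.547 in those 22 and 7 cells. The mesothelial list that set that choice holds Wt1 as well. Bnc1 was at 1.67 (1.21 to 2.32; 1.11 with cells thinned to 3000 UMIs), Foxf1, a factor of gut mesenchyme, at 0.791 (0.588 to 1.06) and Bnc2 at 0.967. Tcf21, a factor of visceral mesenchyme, was 2.1-fold higher in control, but 1 cell held 54% of its UMIs. In all other barcodes Tcf21 was at 1.96 of control, and in the fibroblast reference at 0.886.

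Retinoid genes showed 0 of 4 measured genes past 2-fold (median 0.55). Aldh1a2 was at 0.809 of control (0.696 to 0.940). Rbp4, which carries retinol in blood, was at 1.77 (1.38 to 2.28) and Rarres2, the chemerin gene, at 1.34.

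Matrix genes outside the basement membrane had 6 of 24 measured genes higher and 1 lower (median 0.48). Beside Col1a1, Col3a1, Lum and Dcn, the collagen VI chains Col6a1 and Col6a2 were 2.26-fold (1.65 to 3.11) and 2.32-fold (1.80 to 3.00) higher in maternal obesity, and without the 6 barcodes 1.83-fold and 1.69-fold. The 2 chains were at 4.27 and 2.82 of control in all other barcodes, and Timp1 at 1.17. In the fibroblast reference the chains were at 1.85 and 1.06 of control. Timp1, an inhibitor of matrix metalloproteinases, went the other way: it was 2.86-fold higher in control (2.47 to 3.33). Its median cell held 681 CPM in control and 261 in maternal obesity.

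In the basement membrane list, 0 of 12 measured genes passed 2-fold (median 0.29). Sparc, a collagen-binding protein, was found in every cell at 7109 and 7097 CPM, a ratio of 0.998 (0.952 to 1.05). Col4a1, Col4a5 and Col18a1 were at 1.03, 1.36 and 1.22 of control. Of 5 measured integrin and receptor genes, Dag1, the dystroglycan gene, was 2.25-fold higher in maternal obesity (1.54 to 3.33), and Itgb1, the shared integrin subunit, was at 0.790 (0.640 to 0.972).

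Signalling lists were mostly within 2-fold. In the Wnt list Rspo1 was the single gene with 50 UMIs and was 2.57-fold higher in maternal obesity (1.78 to 3.76), or 4.22-fold with cells thinned to 3000 UMIs. In all other barcodes, which held 0.337 and 1.10 CPM, the ratio was 3.27. Of 9 BMP and TGF-beta genes none passed 2-fold (median 0.18), with Bmp4 at 1.15 and Id1, a BMP target, at 0.532 of control. Of 3 Hedgehog genes none passed it, with the co-receptor Cdon at 1.72 (1.12 to 2.67).

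Growth factor genes had 1 of 15 higher and 2 lower (median 0.06). Areg, an EGF receptor ligand like Hbegf, had 48 and 14 UMIs and was 2.94-fold higher in control (1.59 to 5.77), while in all other barcodes it was at 0.474 of control. Igf2r, a receptor that clears IGF2, was 2.11-fold higher in maternal obesity (1.53 to 2.92), while the IGF binding proteins Igfbp4 and Igfbp5 were at 0.615 and 1.74 of control. Imprinted growth genes had 2 of 7 higher and 0 lower (median 0.61). Dlk1, a growth regulator related to Notch ligands, was 2.11-fold higher (1.84 to 2.42), 1.56-fold without the 6 barcodes, and Plagl1, a zinc finger factor, 2.18-fold higher (1.85 to 2.58). Igf2 was at 1.52 of control (1.38 to 1.67). Dlk1, Plagl1 and Igf2 were at 2.19, 2.52 and 1.55 of control in all other barcodes, where the list's median was 1.01. In the fibroblast reference these 3 genes were at 0.807, 1.49 and 1.63 of control, and the list's median was 0.57.

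Coagulation and prostaglandin genes had 2 of 4 measured genes lower (median -1.05). F3, the tissue factor that starts coagulation, had 202 UMIs in 26 control cells and 33 UMIs in 11 maternal obesity cells, 5.25-fold higher in control (3.62 to 7.83). Plaur, the urokinase receptor, was 3.43-fold higher in control (1.88 to 6.67). F3 was at 0.592 and Plaur at 0.491 of control in all other barcodes, and Plaur was at 0.403 in the fibroblast reference. Plat, tissue plasminogen activator, and Tfpi, the inhibitor of tissue factor, were at 0.780 and 1.13 of control.

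Immediate early genes, which also respond to enzymatic dissociation of tissue, did not move as 1 group. Of 19 measured, 0 were higher and 2 lower (median -0.22). Fos was at 1.04 of control (0.995 to 1.10), Egr1 at 0.879 and Zfp36 at 0.856, while Dusp1 was 2.36-fold (1.92 to 2.90) and Klf6 5.91-fold (2.92 to 13.5) higher in control. Btg2, an antiproliferative gene, was just within 2-fold, at 1.98-fold higher in control. Nr4a1 and Klf4 were also just within it, at 0.505 and 0.507 of control. The part of dissociation in these levels was not tested. Without the 6 barcodes Fos was at 1.17 of control and Klf6 5.03-fold higher in control.

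Of 7 cytokine, chemokine and complement genes, Ccl2 and Cxcl10 were lower, 0 were higher and the median was 0.15. Ptn and Mdk, related heparin-binding growth factors, were at 1.32 and 1.11 of control, and Nfkbia, an inhibitor of NF-kB, was at 1.15 (0.942 to 1.42). Members with fewer than 50 UMIs were not counted. Among these were Cxcl1 with 34 and 1 UMIs, a ratio of 0.0343 (0.000844 to 0.205), Il33 with 22 and 2, a ratio of 0.106 (0.0121 to 0.431), and Csf1 with 4 and 15, a ratio of 4.37 (1.39 to 18.1), named after their values were seen.

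Metabolic genes were lower in part. Of 10 hypoxia and glycolysis genes, 0 were higher and 2 lower (median -0.72). Pgk1, a glycolytic kinase, was 2.25-fold higher in control (1.68 to 3.03) and Bnip3, a mitophagy gene induced by hypoxia, 2.5-fold (1.70 to 3.76). Aldoa, Eno1, Pkm and Ldha, further glycolytic genes, were at 0.586, 0.796, 0.651 and 0.628 of control, and at 0.606, 0.782, 0.766 and 0.715 in all other barcodes. Of 5 lipid and insulin genes none passed 2-fold (median -0.42). The sterol genes Insig1 and Hmgcs1 were at 0.518 (0.401 to 0.666) and 0.532 (0.396 to 0.707) of control, against 0.948 and 0.909 in all other barcodes.

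The proliferation list had 1 of 13 measured genes higher and 0 lower (median -0.19). Cenpf, a kinetochore protein of dividing cells, was 2.14-fold higher in maternal obesity (1.60 to 2.88), with UMIs in 11 and 9 cells. Tubb5 and Stmn1, a tubulin and a microtubule regulator, were at 0.742 and 0.565 of control. The mesenchyme transition list had 1 of 6 measured genes higher, S100a6, and 2 lower (median 0.38). The smooth muscle genes Acta2 and Tagln were 39.1-fold and 6.93-fold higher in control, and 5.05-fold and 2.76-fold without the 6 barcodes, since 1 barcode held 85.7% and 53.0% of their UMIs. Vim, the intermediate filament of mesenchyme, was at 1.07 of control (0.942 to 1.22).

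**Figure D5:**
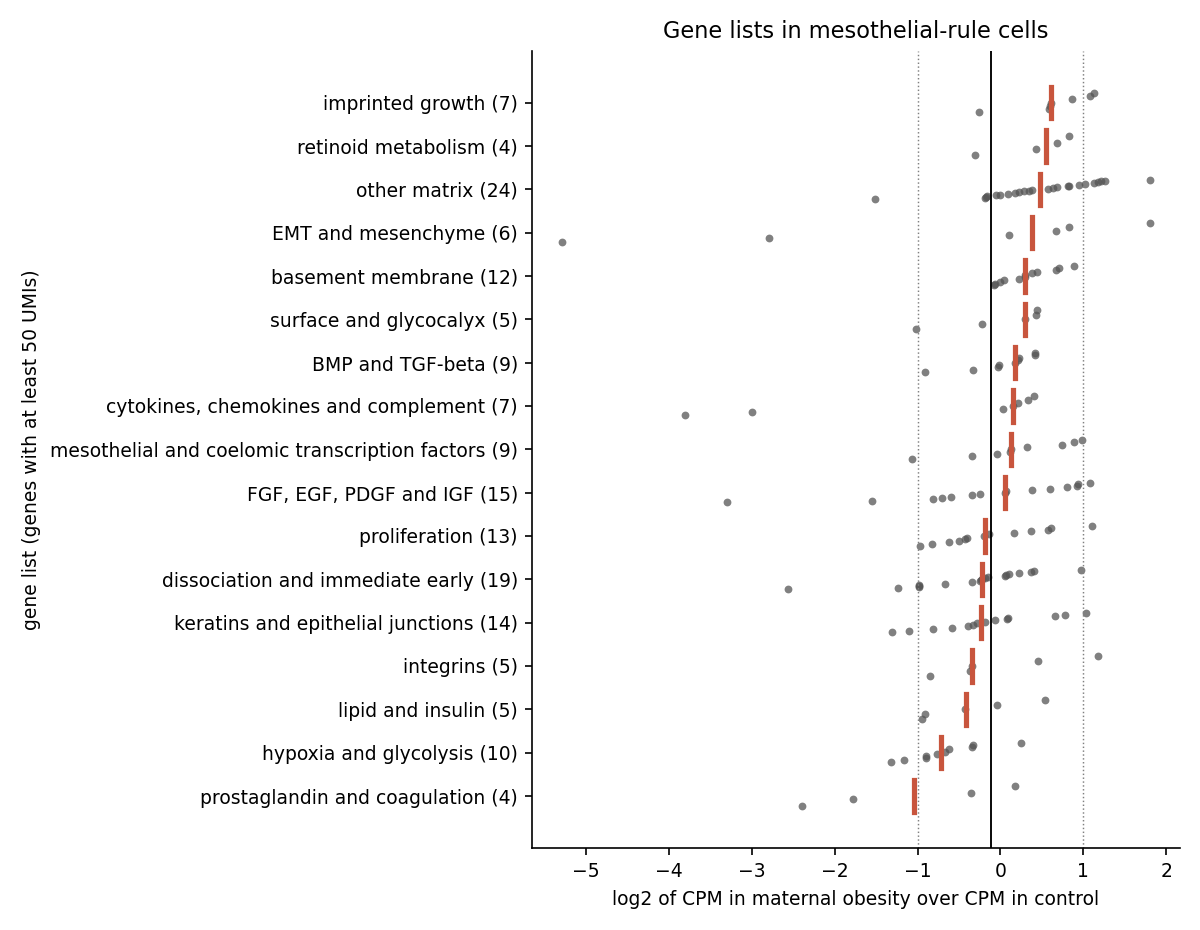
Each grey point is 1 gene with at least 50 UMIs, placed by the log2 of its CPM in maternal obesity over its CPM in control, for the 17 lists with at least 4 such genes other than haemoglobins. Red bars are list medians, the black line is the median of all 3069 genes and dotted lines mark 2-fold. The medians of the prostaglandin and glycolysis lists lie to the left of the black line, and those of the imprinted and retinoid lists to its right.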

How the data were processed

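The deposited matrices hold raw UMI counts per gene and barcode that the authors made with Cell Ranger (2.1.1 per the submitters' processing notes, 6.1.2 per the file headers), without normalisation. The build was not given in the sources used here. Counts of 30400 identifiers were added up by 28116 symbols. The control and maternal obesity libraries held 8903 and 9714 barcodes with 103013814 and 120811946 UMIs. The labels' protocols describe collagenase digestion, filtering and red cell lysis.

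Members were taken by the rule given at the start. Members and gene lists were chosen with earlier results of these data known. Of 448 symbols in the lists, 15 were not analysed here and 2 were matched by a RefSeq synonym. Doublets were called with Scrublet in scanpy 1.11.5 at 0.8% per 1000 barcodes. It called 0.872% and 1.85% of kept barcodes, against 7.12% and 7.77% expected, and 0 members, so doublets may remain, and none were removed.

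UMIs were summed over members per library and divided by the sum (CPM). No test was made with 1 library per group. Ratios carry exact conditional binomial 95% intervals and shares Clopper-Pearson ones, from scipy 1.17.1, which cover counting error only. Log2 ratios used 0.5 UMI added to both sums. Shares of cells were also taken at 3000 UMIs drawn per cell, so that 2 shallower control cells and 4 of maternal obesity were dropped. The code was tested on simulated data. Named genes were the markers, the 15 leading genes by the lower of the 2 libraries' folds (at least 20 UMIs in each), the 10 highest and 10 lowest ratios by the interval bound nearest 1 (at least 50 UMIs in both libraries together), and in each list the 4 genes with the highest CPM and any gene past 2-fold. Mitochondrial, ribosomal, haemoglobin and sex-linked genes, identifiers without a symbol and genes with over 50% of UMIs in 1 cell were kept out of the leading and ratio sets. The 14 planned and 2 added alternatives are listed in the closing section.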

Additional observations from a re-analysis of the deposited data

How the results depend on the processing

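No paired analysis was possible because each group has 1 library and the libraries carry different replicate numbers. Of 69 counts and shares over 16 alternatives, 46 stayed within their limits. With at least 3 rule genes the shares were 0.378% in control and 0.318% in maternal obesity, and 80 genes were lower. With fewer than 2 epithelial genes they were 0.247% and 0.304%, so the order of the libraries turned, with 54 genes higher and 3 lists past 0.5. Leaving out members led by another class's markers kept 22 and 7 cells (0.32% and 0.0967%), with 27 genes higher, 80 lower and 32 at least 8-fold above other barcodes. There Krt14 turned from 0.404 to 2.26 of control. Msln, Wt1, Rbfox3 and Krt71, all within 1.5-fold before, went to 0.469, 0.547, 2.63 and 2.14. S100a6, Crip1, Col1a1 and Col3a1 were at 1.29, 1.29, 1.31 and 1.06. The marker lists that set that choice hold Msln, Wt1, Col1a1 and Col3a1 themselves. As a mean over cells 139 genes were higher. Counts moved by construction with at least 20 UMIs (376 higher, 341 lower), at least 100 UMIs (41 and 78), 1.5-fold (288 and 465) and thinning to 3000 UMIs (25 and 43, 3 lists). Without the 6 barcodes led by other cells, chosen after seeing the data, 8 lists passed 0.5. Counts stayed within 1.5 times with at most 10% mitochondrial transcripts, at least 1000 genes, Scrublet calls left out, haemoglobin and mitochondrial UMIs left out, without the 2 largest members of each library, after division by the median ratio and with 1 UMI added. The cause of the other moves was not tested. Medians ranged over the alternatives from -0.72 to -0.36 for glycolysis, 0.60 to 0.94 for imprinted genes, 0.24 to 0.72 for matrix, -1.22 to -0.01 for coagulation and 0.05 to 0.67 for retinoids. The 81 cells limit single genes: a ratio from fewer than 20 UMIs in 1 library has an interval several-fold wide.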
